A study of Mus musculus with 13 samples.

Results

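Chemokines are small secreted proteins that guide white blood cells, and their receptors sit on the cells that follow them. The chemokine system of mouse lung was taken here as every gene of the deposited tables whose symbol names a CC, CXC, C or CX3C chemokine, a receptor of these families (Ccr, Cxcr, Cx3cr1, Xcr1) or an atypical receptor (Ackr1 to Ackr4), with Ccrl2 left aside. This rule, which uses symbols and no measured value, gave 60 of the 20270 genes in the tables, 37 of them ligands (23 CC, 12 CXC, Cx3cl1 and Xcl1) and 23 receptors (11 CC, 6 CXC, Cx3cr1, Xcr1 and 4 atypical). After bleomycin, 23 of 35 ligands tested rose in WT lungs and 3 fell, where 25.0% of all genes were called higher and 23.9% lower. The rise was led by ligands grouped here under CCR2 and CXCR3. Receptors moved in both directions, with log2 fold changes from 4.24 for Ackr1 to -3.01 for Ackr4 in WT lungs. Between CB1R KO and WT lungs after bleomycin, Ccl2 was the one ligand past the threshold, at 9.71 ± 4.65 TPM (SD, n = 4) against 22.8 ± 2.38 TPM (SD, n = 5), and no receptor passed. Of all genes, 0.979% passed in this comparison.

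The study asked whether loss of cannabinoid receptor 1 (CB1R, encoded by Cnr1) alters the lung response to bleomycin, a drug that injures the lung and leads to fibrosis. RNA came from the lower right lobe of 13 mice in 3 groups: 4 wild-type Control mice given sterile saline, 5 wild-type mice given bleomycin (WT bleomycin) and 4 CB1R KO mice given bleomycin (CB1R KO bleomycin). Bleomycin was a single oropharyngeal dose of 1 U per kg and lungs were taken 14 days later. The study describes its purchased C57BL/6J mice as male and 13 weeks old. The Cnr1-/- mice lack the gene in the whole body on the same background, and their sex and age are not stated in its methods. No CB1R KO lung without injury was analysed here, so the effect of the deletion on an uninjured lung cannot be told apart from its effect on the response. Values are listed below in the order of the mouse numbers in the labels, which are 3, 21, 24 and 26 for Control, 4, 2, 5, 4-B2 and 7 for WT bleomycin, and 8, 9, 10 and 11 for CB1R KO bleomycin. Reads of Cnr1 were present in every library, with 27 to 69 estimated counts in Control, 50 to 110 in WT bleomycin and 41 to 188.1 in the libraries labelled CB1R KO, and since the part of the gene they came from is unknown, they do not check the genotype.

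Chemokine receptors are G protein-coupled receptors that signal through Gi proteins and turn a cell toward the source of its ligand. Inflammatory chemokines are made on demand by macrophages, epithelium and stroma and call in monocytes, neutrophils and T cells, whereas homeostatic chemokines such as CXCL12, CCL19, CCL21 and CXCL13 place cells within tissues and lymphoid structures. Atypical receptors bind chemokines without Gi signalling and take them up, store them or carry them across a vessel wall. In lungs injured by bleomycin, recruitment of monocytes through CCL2 and CCR2 is a well-known part of the inflammatory phase.

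Levels are given in TPM, a relative abundance of transcripts that is scaled for transcript length and depth and allows a comparison between genes. Fold changes are log2 values fitted by edgeR to the estimated counts, with their standard error (SE) and a p-value adjusted over all genes tested. Totals were 14615904 to 16662580 estimated counts in 12 libraries and 53463884 in CB1R KO 11. A filter on low counts left 15315 genes, among them 35 ligands and 22 receptors, and removed Ccl1, Ccl27b and Ccr1l1. The lung epithelial markers Sftpc, Sftpb, Sftpa1, Ager, Rtkn2 and Scgb1a1 summed to 61000 to 128000 TPM in every library, and 5 markers of cardiac muscle were also present, at 602 to 1460 TPM in Control, 118 to 432 in WT bleomycin and 438 to 761 in CB1R KO bleomycin. In whole lung, fewer cells of a type and less RNA per cell cannot be told apart.

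Across the ligands, most of those tested stood above Control after bleomycin in WT lungs. In WT bleomycin against Control lungs, 23 of 35 ligands were higher and 3 lower with an adjusted p under 0.05 in edgeR, and their median log2 fold change was 1.31 where that of all genes was -0.01. With the counts of the gene copies Ccl21a, Ccl21b and Ccl21d summed, 22 of 33 ligands were higher and 3 lower. Of all 15315 genes tested, 25.0% were called higher and 23.9% lower in this comparison. In CB1R KO bleomycin against the same Control lungs, 17 ligands were higher and 1 was lower, with a median log2 fold change of 1.03, beside 19.0% of all genes called higher and 16.3% lower. The summed TPM of the 37 ligands was 1240 to 1710 in Control, 2660 to 3050 in WT bleomycin and 2520 to 3280 in CB1R KO bleomycin lungs. Both comparisons use the same wild-type Control libraries, so their values are set side by side and are not independent of each other. In the second, deletion and bleomycin differ together, and its values are differences from wild-type Control, not a change within the CB1R KO genotype.

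**Figure D1:**
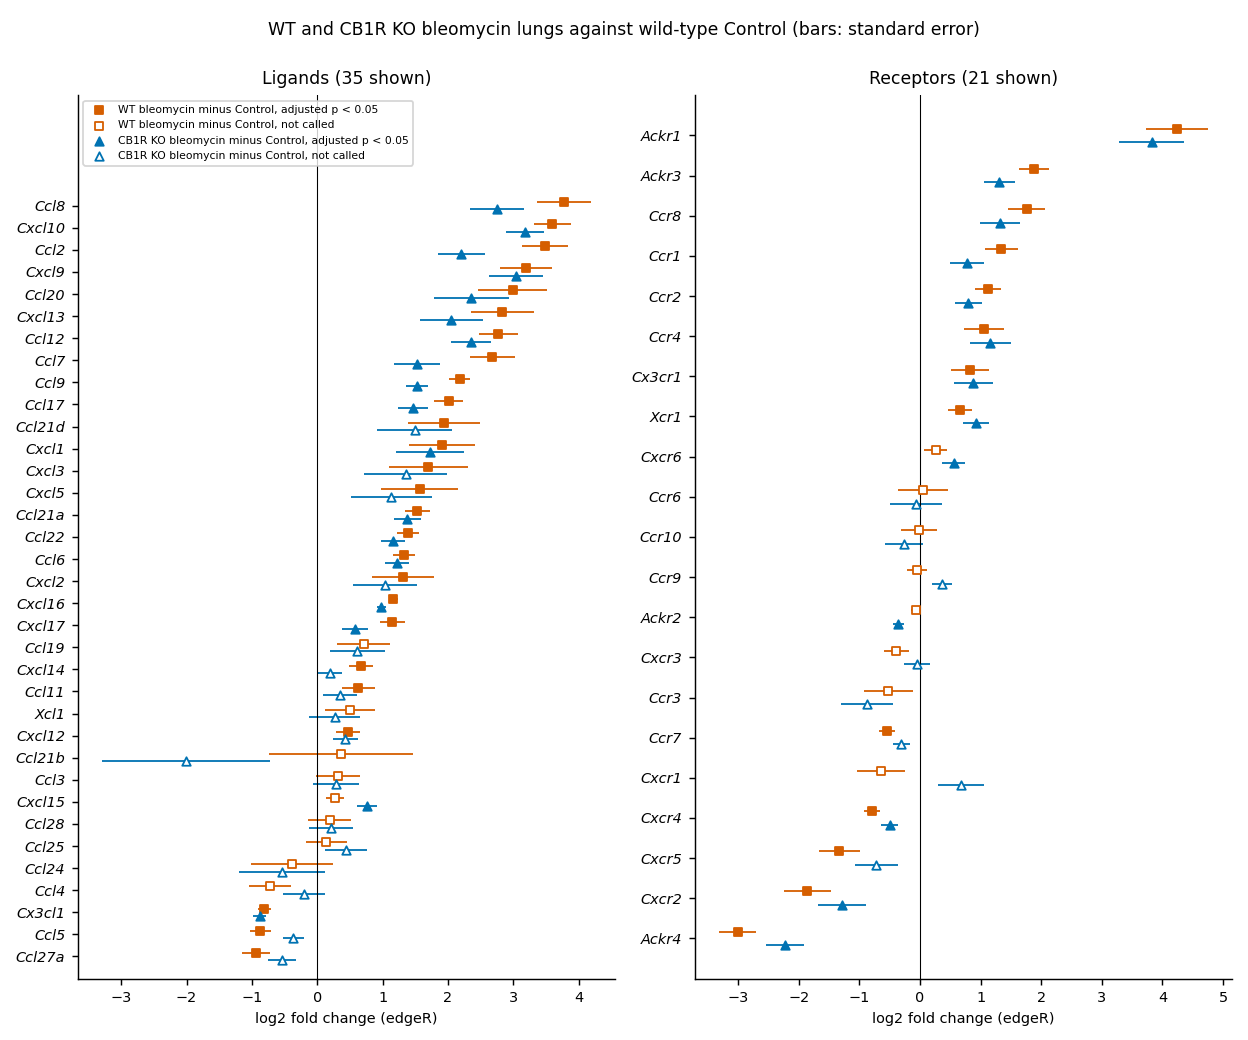
Log2 fold change of 35 ligands (left) and 21 receptors (right) in WT bleomycin (squares) and CB1R KO bleomycin (triangles) against Control, with standard errors as bars and filled symbols for an adjusted p under 0.05 in edgeR. Ligands lie mostly to the right of 0, from 3.78 for Ccl8 to -0.94 for Ccl27a in WT bleomycin lungs, while receptors spread from 4.24 for Ackr1 to -3.01 for Ackr4.

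The 4 ligands grouped here as monocyte attracting, Ccl2, Ccl7, Ccl12 and Ccl8, were all called higher in WT bleomycin and in CB1R KO bleomycin lungs than in Control. Ccl2, the mouse MCP-1 and the main ligand of CCR2, stood at 1.49, 1.78, 1.32 and 3.25 TPM in Control lungs, at 23.5, 21.1, 19.6, 24.9 and 25.0 TPM in WT bleomycin lungs and at 13, 4.37, 14.2 and 7.32 TPM in CB1R KO bleomycin lungs. The 3 groups did not overlap, and every CB1R KO lung lay between the highest Control and the lowest WT bleomycin lung. Its log2 fold change over Control was 3.48 in WT lungs (SE 0.35, adjusted p = 2.24e-06 in edgeR) and 2.20 in CB1R KO lungs (SE 0.36, adjusted p = 0.000352). Ccl7, a second CCR2 ligand encoded beside Ccl2, followed the same order with 1.56, 1.95, 1.20 and 4.37 TPM in Control, 19.5, 16.3, 11.8, 13.3 and 14.3 TPM in WT bleomycin and 5.56, 4.72, 10.0 and 6.93 TPM in CB1R KO bleomycin lungs. It too had no overlap between the groups, although CB1R KO 9, at 4.72 TPM, was close to Control 26.

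Ccl12, the mouse MCP-5, was less separated between the genotypes. Its levels were 3.50, 3.21, 2.91 and 4.17 TPM in Control, 28.8, 30.4, 21.8, 22.4 and 17.8 TPM in WT bleomycin and 9.43, 15.9, 26.3 and 19.8 TPM in CB1R KO bleomycin lungs, where 2 of the 4 CB1R KO lungs were inside the WT range. Ccl8, the mouse MCP-2, reached the highest level of the 4, with 127, 133, 172, 105 and 139 TPM in WT bleomycin lungs against 7.01, 17.6, 5.42 and 8.35 TPM in Control. In CB1R KO bleomycin lungs Ccl8 was at 36.6, 41.1, 128 and 60.5 TPM, so that CB1R KO 10 was at the WT level and the other 3 mice were below every WT bleomycin lung. Over Control, the log2 fold changes in WT and CB1R KO lungs were 2.68 and 1.53 for Ccl7, 2.77 and 2.35 for Ccl12, and 3.78 and 2.75 for Ccl8. Each of these values had an adjusted p of 0.00407 or less in edgeR. Markers of monocytes and interstitial macrophages were higher with them, 7 of 8 being called higher in each bleomycin group, and their summed TPM was 918 to 1050 in Control, 3420 to 3870 in WT bleomycin and 2510 to 4130 in CB1R KO bleomycin lungs. The part of these cells in the level of the ligands was not tested.

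Cxcl9 and Cxcl10, neighbouring genes that are induced by interferons and bind CXCR3 on T and NK cells, were among the steepest rises. Cxcl10 went from 2.45, 1.61, 2.03 and 1.77 TPM in Control to 28.4, 29.6, 20.3, 23.2 and 21.6 TPM in WT bleomycin lungs and was at 15.7, 10.7, 29.6 and 19.2 TPM in CB1R KO bleomycin lungs. Its log2 fold change over Control was 3.60 in WT lungs (SE 0.28, adjusted p = 3.02e-07 in edgeR) and 3.18 in CB1R KO lungs (SE 0.29, adjusted p = 3.09e-06). Cxcl9 was lower in absolute terms, at 0.515, 0.295, 0.465 and 0.503 TPM in Control, 4.93, 3.57, 3.22, 4.13 and 4.59 TPM in WT bleomycin and 1.74, 2.21, 7.19 and 3.99 TPM in CB1R KO bleomycin lungs. For both genes every lung after bleomycin was above every Control lung, and the genotypes overlapped. The log2 fold change of Cxcl9 was 3.19 in WT and 3.04 in CB1R KO lungs.

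The promoters of these 2 genes are shown because they rose together and hold the same pair of motifs. Capitals mark GGGANTTCC, the core of a site for NF-kappaB, a transcription factor of inflammatory signalling, and GAAANNGAA, the core of the element bound by interferon regulatory factors. Each is the 250 bases before the annotated start in RefSeq on GRCm38.p6, 5′ to 3′ on the minus strand, which is chr5:92328080-92328329 for Cxcl9 and chr5:92348890-92349139 for Cxcl10.
Cxcl9: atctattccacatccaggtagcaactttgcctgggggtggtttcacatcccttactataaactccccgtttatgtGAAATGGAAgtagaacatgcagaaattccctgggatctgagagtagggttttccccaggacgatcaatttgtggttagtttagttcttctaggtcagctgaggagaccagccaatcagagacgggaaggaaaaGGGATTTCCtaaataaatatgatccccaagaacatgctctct
Cxcl10: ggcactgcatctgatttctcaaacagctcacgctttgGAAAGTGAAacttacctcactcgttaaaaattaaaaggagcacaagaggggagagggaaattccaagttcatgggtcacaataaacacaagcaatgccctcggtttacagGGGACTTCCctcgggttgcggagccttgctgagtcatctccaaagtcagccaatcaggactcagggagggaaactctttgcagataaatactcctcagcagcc
The GGGANTTCC match ends 34 bases before the start in Cxcl9 and 95 in Cxcl10. Searched on both strands with N as any base, GGGANTTCC was present in 1.43% of the 32851 RefSeq promoters of this length, GAAANNGAA in 7.13% and the pair in 0.107%. A promoter was found by symbol for 47 of the 60 members. The other 13, among them Ccl2, Ccl4, Ccl5, Ccl7, Ccl11, Cxcl5 and Cxcl16, were not searched. Among the 47 searched, GGGANTTCC was present in Cxcl9, Cxcl10 and Ccr6, and GAAANNGAA in 8 members, Ccl1, Ccl3, Ccl19, Ccr2, Cxcl9, Cxcl10, Cxcl14 and Cxcr1. Another motif, TTCNNNGAA, was also searched and was present in 7.02% of the promoters. Among members it was found in Ccl17, Ccr1l1, Ccr6 and Cxcl14, and not in Cxcl9 or Cxcl10. Cxcl9 and Cxcl10 are shown for holding the pair, so its share of 0.107% is a description only. A match of letters is a description and does not show that a factor binds there.

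Ligands of CCR1 and related receptors divided by gene. Ccl9 and Ccl6, which are made by myeloid cells, rose, whereas Ccl5 (RANTES), a product of T and NK cells, fell. Ccl9 was at 10.7, 15.1, 7.33 and 8.56 TPM in Control, 48.8, 54.4, 50.0, 44.8 and 44.7 TPM in WT bleomycin and 33.0, 31.1, 36.4 and 27.0 TPM in CB1R KO bleomycin lungs. The 3 groups did not overlap, with CB1R KO lungs in the middle (log2 fold change over Control 2.18, SE 0.16, in WT and 1.53, SE 0.17, in CB1R KO lungs). Ccl6, the second most abundant ligand of Control lungs at 118 to 179 TPM, was at 303 to 436 TPM in WT bleomycin and 238 to 446 TPM in CB1R KO bleomycin lungs, a log2 fold change over Control of 1.33 and 1.22.

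Ccl5 was at 100, 75.2, 77.9 and 71.8 TPM in Control, 61.6, 36.3, 36.3, 41.6 and 50.3 TPM in WT bleomycin and 57.5, 58.9, 80.6 and 59.9 TPM in CB1R KO bleomycin lungs. Every WT bleomycin lung was below every Control lung (log2 fold change -0.87, SE 0.16, adjusted p = 0.000388 in edgeR), and CB1R KO lungs overlapped both groups. Markers of NK cells (Ncr1, Klrb1c, Klre1, Gzma and Prf1) had the same order of groups as Ccl5, but not of lungs within CB1R KO. CB1R KO 10, the highest of its group for Ccl5 (80.6 TPM), was the lowest for these markers (36.4 summed TPM). All 5 were lower in WT bleomycin than in Control lungs, and their summed TPM was 77.3 to 105 in Control, 20.0 to 31.1 in WT bleomycin and 36.4 to 53.8 in CB1R KO bleomycin lungs, with none of the 5 at 0 throughout a group. Gzma and Prf1 were also called higher in CB1R KO than in WT bleomycin lungs. T cell markers summed to 49.5 to 83.8 TPM in Control, 38.8 to 63.7 in WT bleomycin and 55.9 to 73.8 in CB1R KO bleomycin lungs. Of 7 T cell markers, 3 were called lower in WT bleomycin than in Control lungs. The part of NK or T cells in the level of Ccl5 was not tested. Ccl3 and Ccl4, macrophage inflammatory proteins, were low and overlapped between all groups, at 2.38 to 9.55 TPM and 1.89 to 7.23 TPM, and neither passed the test in any comparison.

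Both ligands of CCR4, a receptor of regulatory and type 2 helper T cells, were called higher than Control in each bleomycin group. Ccl17 was at 14.2, 28.5, 20.6 and 21.3 TPM in Control, 77.2, 71.2, 74.2, 109 and 101 TPM in WT bleomycin and 46.1, 53.3, 75.4 and 64.0 TPM in CB1R KO bleomycin lungs. Ccl22 was at 4.94 to 8.97 TPM, 13.8 to 18.1 TPM and 11.8 to 17.3 TPM in the same order. The log2 fold change of Ccl17 over Control was 2.01 in WT and 1.47 in CB1R KO lungs, and that of Ccl22 was 1.39 and 1.16. Dendritic cell markers, the cells best known for these 2 ligands, summed to 62.3 to 71.5 TPM in Control, 119 to 125 in WT bleomycin and 95.3 to 135 in CB1R KO bleomycin lungs, with 3 of 6 called higher and Clec9a lower, and their part was not tested.

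The eosinophil attractants (eotaxins) behaved differently from each other. Ccl11 was at 4.93, 10.6, 5.59 and 7.25 TPM in Control and 9.16, 9.05, 13.4, 11.3 and 13 TPM in WT bleomycin lungs. The groups overlapped, and its adjusted p of 0.0481 (log2 fold change 0.63, SE 0.25, edgeR) was just under the threshold and above it in 12 of 26 alternatives, with values up to 0.21. These included leaving out any of Control 3, 24 or 26, WT 5, 4-B2 or 7, or CB1R KO 8 or 9. Ccl24 was high in a single lung of each group, with 23.4 TPM in Control 21, 16.0 TPM in WT 5 and 15.1 TPM in CB1R KO 9, against 1.67 to 5.27 TPM in all other lungs. It was not called in any comparison. Alveolar macrophage markers summed to 2220 TPM in Control 21 and to 937 to 992 TPM in the other Control lungs, while WT 5 and CB1R KO 9 (1270 and 1530 TPM) were inside the range of their groups. Defining markers of eosinophils and mast cells were scarce, 6 genes together reaching 4.99 to 15.8 TPM over all lungs.

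Ligands of lymphoid structures rose to some of the highest levels of the family. Ccl21a, which draws CCR7-bearing T and dendritic cells to lymphatic vessels, was at 146, 128, 114 and 100 TPM in Control, 305, 388, 344, 430 and 325 TPM in WT bleomycin and 261, 235, 475 and 347 TPM in CB1R KO bleomycin lungs. Every lung after bleomycin was above every Control lung. The log2 fold change was 1.53 in WT lungs (SE 0.19, adjusted p = 1.56e-05 in edgeR) and 1.38 in CB1R KO lungs (SE 0.20, adjusted p = 0.000111). The mouse genome holds near-identical copies of this gene, and the transcripts of Ccl21a and Ccl21d differ at 6 of 870 positions in GENCODE M21, so that reads could be assigned to either. Ccl21d was indeed listed at 5.25 TPM in Control 21 and 63.2 to 87.5 TPM in the other Control lungs, and Ccl21b ranged from 0.00983 to 44.1 TPM, and these single-copy values are uncertain. The 3 copies together were at 166 to 225 TPM in Control, 501 to 682 in WT bleomycin and 396 to 790 in CB1R KO bleomycin lungs, and their summed counts had log2 fold changes over Control of 1.62 (SE 0.19) and 1.34 (SE 0.20). Markers of lymphatic endothelium were called higher than Control for 3 of 5 genes in each bleomycin group, while their summed TPM overlapped between groups (113 to 224, 152 to 296 and 122 to 192).

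Cxcl13, the attractant of CXCR5-bearing B cells, was at 4.04, 3.88, 4.81 and 8.39 TPM in Control, 36.1, 26.6, 26.6, 28.1 and 74.8 TPM in WT bleomycin and 11.3, 11.3, 25.8 and 40.3 TPM in CB1R KO bleomycin lungs. Every lung after bleomycin was above every Control lung, and WT 7 stood far above the rest of its group. The log2 fold change over Control was 2.83 in WT lungs (SE 0.48, adjusted p = 0.000216 in edgeR) and 2.05 in CB1R KO lungs (SE 0.48, adjusted p = 0.00471). Plasma cell markers were also highest in WT 7 and, among CB1R KO lungs, in CB1R KO 11, at 362 and 259 summed TPM against 27.4 to 38.8 in Control, and their part was not tested. Of 3 such markers tested, only Jchain was called higher than Control, in each bleomycin group. Ccl19, the other CCR7 ligand, was at 0.949 to 5.63 TPM in Control and 3.06 to 7.14 TPM after bleomycin and was not called (log2 fold change 0.71, SE 0.41, adjusted p = 0.166 in edgeR for WT bleomycin against Control).

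Among the neutrophil attractants, Cxcl15 (lungkine), a product of lung epithelium, was the most abundant ligand of all and the one that stood highest in CB1R KO lungs. It was at 828, 592, 545 and 420 TPM in Control, 776, 863, 771, 652 and 603 TPM in WT bleomycin and 1060, 1170, 964 and 1040 TPM in CB1R KO bleomycin lungs, and made up 33.8% to 48.5%, 22.7% to 28.3% and 29.4% to 43.4% of the summed ligand TPM in these groups. WT bleomycin and Control lungs overlapped (log2 fold change 0.27, SE 0.14, adjusted p = 0.142 in edgeR), whereas every CB1R KO lung was above every other lung (0.76 over Control, SE 0.15, adjusted p = 0.00157). The epithelial markers Sftpa1 and Sftpc were also called higher in CB1R KO than in WT bleomycin lungs, 2 of 6 in the list, while the summed markers overlapped (61000 to 79600 and 67100 to 82500 TPM), and their part in the level of Cxcl15 was not tested.

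The classical ligands of CXCR2, which are made quickly in acute inflammation, were all scarce at this time. Cxcl1 was at 0.493, 0.680, 0.967 and 1.46 TPM in Control, 3.68, 2.35, 1.93, 5.46 and 3.81 TPM in WT bleomycin and 6.93, 1.83, 1.71 and 2.35 TPM in CB1R KO bleomycin lungs, with no overlap between either bleomycin group and Control. Its log2 fold change was 1.91 in WT lungs (SE 0.51, adjusted p = 0.00618 in edgeR) and 1.72 in CB1R KO lungs (SE 0.52, adjusted p = 0.0193). Cxcl2, Cxcl3 and Cxcl5 stayed at or below 3.56 TPM in every lung, and the rise of 1.31, 1.70 and 1.57 in WT lungs rested on few counts (0 to 20.8 in Control and 9.0 to 36.5 in WT bleomycin). Their adjusted p-values in edgeR were 0.0321, 0.0304 and 0.0392, and exceeded 0.05 in 3, 5 and 9 of 25 alternatives, among them leaving out Control 24 for each of the 3 genes, WT 7 for Cxcl2 and Cxcl5, and WT 5 for Cxcl3. None of the 3 was called in CB1R KO bleomycin against Control.

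Cxcl12, the ligand of CXCR4 and ACKR3 and a product of stroma and endothelium, depended on the scale. By TPM it was at 94.6, 101, 79.8 and 70.0 in Control, 209, 200, 226, 118 and 187 in WT bleomycin and 152, 133, 196 and 155 in CB1R KO bleomycin lungs, with both bleomycin groups above every Control lung. By estimated counts its log2 fold change was 0.47 in WT lungs (SE 0.18, adjusted p = 0.0419 in edgeR) and 0.43 in CB1R KO lungs (SE 0.19, adjusted p = 0.0892). On log2 TPM with a pseudocount of 1, limma gave 1.09 (SE 0.17, adjusted p = 0.000163) and 0.87 (SE 0.18, adjusted p = 0.00237). TPM sums transcripts after scaling each for its length, so a different mix of transcripts would move it and counts differently, which was not tested. The count-based call in WT lungs was lost without any of Control 3, 24 or 26 or WT 4, 2 or 5, with adjusted p-values up to 0.129 over the alternatives.

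Cx3cl1 (fractalkine), a membrane-bound chemokine of endothelium and epithelium, was the clearest fall. It was at 33.2, 33.9, 39.0 and 30.4 TPM in Control, 19.6, 18.8, 18.1, 20.0 and 20.8 TPM in WT bleomycin and 20.8, 24.2, 17.4 and 16.3 TPM in CB1R KO bleomycin lungs. The groups after bleomycin overlapped each other and neither reached Control (log2 fold change -0.81, SE 0.10, in WT and -0.88, SE 0.10, in CB1R KO lungs). Markers of blood endothelium fell too, 4 of 5 in WT bleomycin against Control, with Vwf higher, and summed to 1460 to 1860, 1110 to 1290 and 1280 to 1430 TPM in the 3 groups. Ccl27a, an epithelial ligand of CCR10, fell in WT lungs from 17.7, 13.7, 17.7 and 18.5 TPM to 11.2, 9.71, 11.6, 9.40 and 12.4 TPM (log2 fold change -0.94, SE 0.22, adjusted p = 0.00244 in edgeR) and was spread from 8.23 to 20.4 TPM in CB1R KO lungs.

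Among the remaining ligands, Cxcl16, a transmembrane chemokine that binds CXCR6, had the smallest error of the ligands. It was at 29.4 to 31.8 TPM in Control, 66.2 to 75.8 TPM in WT bleomycin and 55.2 to 71.0 TPM in CB1R KO bleomycin lungs (log2 fold change 1.16 and 0.98 over Control, each with an SE of 0.07). Cxcl17, a mucosal chemokine, was at 46.4 to 68.6, 98.0 to 172 and 71.3 to 98.4 TPM, and Cxcl14, the third most abundant ligand of Control lungs, was at 100 to 180, 185 to 265 and 127 to 199 TPM in the same order. Cxcl17 was called higher than Control in both bleomycin groups (1.15 and 0.58), while Cxcl14 was called in WT (0.67, SE 0.18) and not in CB1R KO lungs, a difference that is tested below by the direct comparison. Ccl20, the CCR6 ligand, rose by 2.99 in WT lungs (SE 0.53, adjusted p = 0.000357 in edgeR) from 1.0 to 3.0 estimated counts per Control library to 8.0 to 19.0, so its size is poorly fixed. Xcl1, Ccl25 and Ccl28 were at or below 7.18 TPM and not called in any comparison. Of the ligands that the filter removed, Ccl1 had 0 to 1.0 estimated counts in Control, 3.0 to 8.0 in WT bleomycin and 0 to 13 in CB1R KO bleomycin libraries, and Ccl27b was listed at 0 in all but 2 WT bleomycin lungs.

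**Figure D2:**
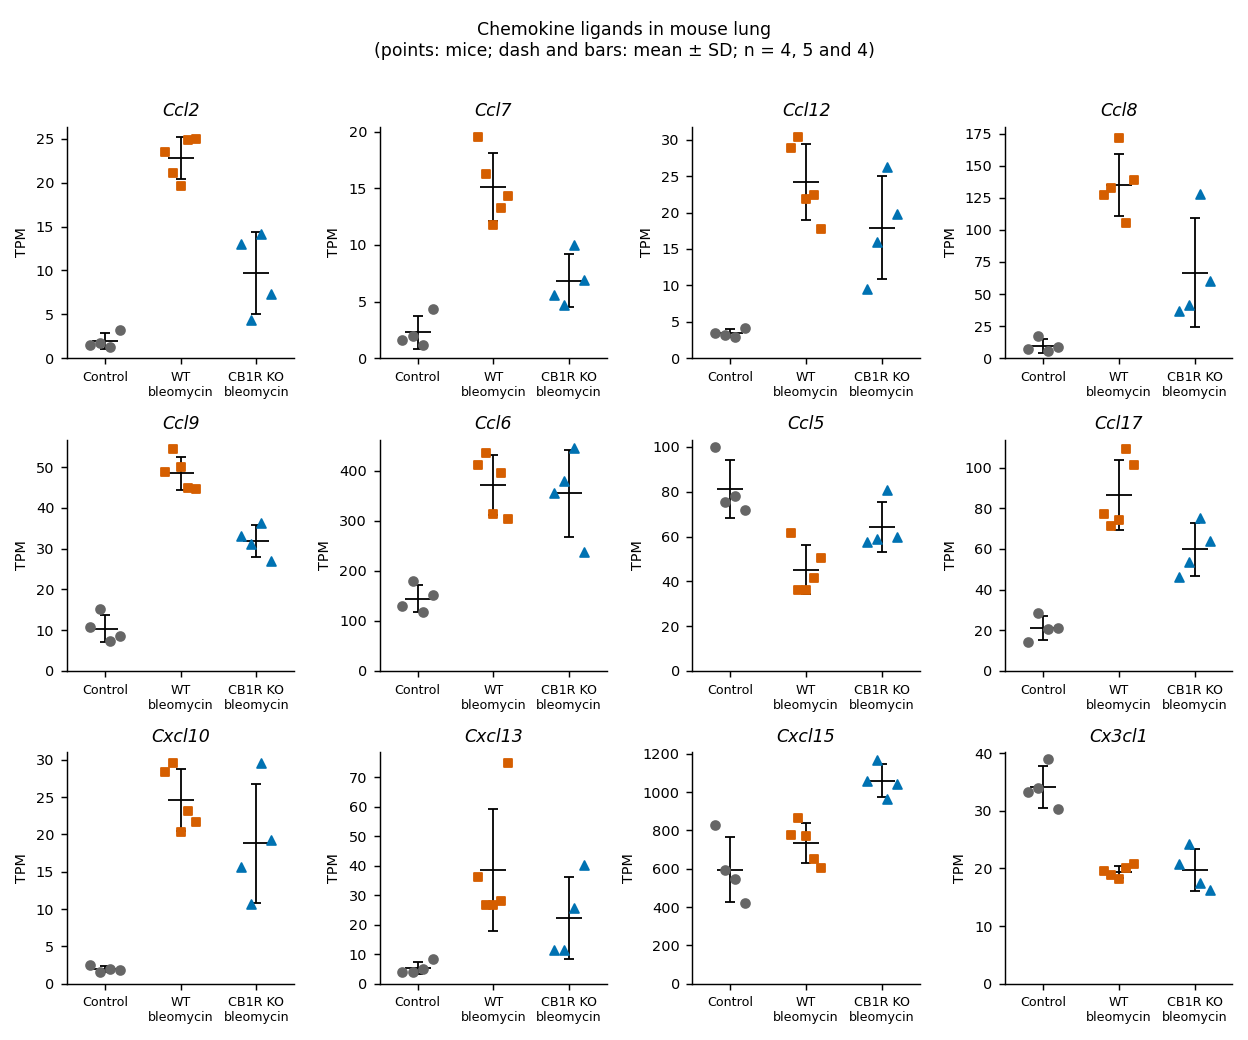
TPM of 12 ligands in each lung (points), with the mean and SD of each group (4 Control, 5 WT bleomycin, 4 CB1R KO bleomycin) and axes from 0. Ccl2, Ccl7 and Ccl9 show CB1R KO lungs between Control and WT bleomycin lungs without overlap, Cxcl15 shows them above both, and Cx3cl1 shows both bleomycin groups below Control.

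Receptors moved in both directions. In WT bleomycin against Control lungs, 9 of 22 tested receptors were higher and 5 lower by edgeR at an adjusted p under 0.05, with a median log2 fold change of 0.01. The share of all genes was 25.0% higher and 23.9% lower, so the share of receptors that fell was near that of genes at large. In CB1R KO bleomycin against Control, 10 were higher and 4 lower, with a median of 0.46, beside 19.0% and 16.3% of all genes. Their summed TPM was 254 to 341 in Control, 341 to 402 in WT bleomycin and 281 to 394 in CB1R KO bleomycin lungs. Cxcr4, Ackr2 and Ccr7 were the 3 most abundant receptors of Control lungs. Of Ccr1l1, which the filter removed, no library held more than 4.0 estimated counts.

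Among receptors of monocytes and macrophages, Ccr2, Ccr1 and Cx3cr1 rose in WT bleomycin lungs. Ccr2, which releases monocytes from bone marrow and draws them to CCL2, was at 42.5, 22.6, 18.3 and 14.9 TPM in Control, 60.4, 59.3, 46.9, 46.1 and 51.6 TPM in WT bleomycin and 47.5, 36.8, 53.9 and 37.9 TPM in CB1R KO bleomycin lungs. WT bleomycin lungs were above every Control lung, and Control 3 overlapped CB1R KO lungs (log2 fold change 1.12, SE 0.22, and 0.80, SE 0.23). Ccr1, shared by monocytes and neutrophils, was at 11.8, 5.72, 4.11 and 12.3 TPM in Control, 21.6, 22.3, 18.4, 26.9 and 21.1 TPM in WT bleomycin and 13, 14.1, 20.9 and 13.7 TPM in CB1R KO bleomycin lungs, with no Control lung as high as a lung after bleomycin.

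Cx3cr1, the fractalkine receptor of monocytes and macrophages, was at 14.4, 6.63, 7.76 and 4.26 TPM in Control, 18.6, 21.1, 16.5, 10.1 and 10.7 TPM in WT bleomycin and 15.2, 11.7, 25.1 and 13.9 TPM in CB1R KO bleomycin lungs. It thus went up where its ligand Cx3cl1 went down, but Control 3 overlapped both groups and the calls were weak (log2 fold change 0.82, SE 0.31, adjusted p = 0.0369, and 0.88, SE 0.32, adjusted p = 0.0425, edgeR). In WT lungs the call was lost without any of Control 21, 24 or 26 or WT 4, 2 or 5, with adjusted p-values up to 0.11. Receptors of T cell subsets were scarce. Ccr8 rose from 0.612 to 1.08 TPM in Control to 2.23 to 4.19 TPM in WT bleomycin lungs (1.76 on the log2 scale), and Ccr4, the receptor for Ccl17 and Ccl22, rose by 1.05 from 0.326 to 0.908 TPM to 0.730 to 1.91 TPM. Without Control 26, Ccr4 was not called in WT bleomycin lungs. Cxcr3, the receptor for Cxcl9 and Cxcl10, did not pass in any comparison (3.26 to 4.90 TPM in Control, 2.11 to 4.29 in WT bleomycin and 3.29 to 5.14 in CB1R KO bleomycin lungs), and neither did Ccr3, the eotaxin receptor, at 0.465 to 2.97 TPM. Xcr1, the XCL1 receptor of cross-presenting dendritic cells, was higher than Control in WT bleomycin (0.66, SE 0.20) and CB1R KO bleomycin lungs (0.92, SE 0.21), with 1.16 to 1.36 TPM in Control and 1.28 to 2.93 and 1.91 to 2.80 TPM after bleomycin. Cxcr6, the receptor for Cxcl16, was called in CB1R KO lungs at 4.79 to 7.38 TPM against 2.83 to 4.77 TPM in Control (0.56, SE 0.19, adjusted p = 0.0329 in edgeR), and lost the call in 7 of 26 alternatives, among them leaving out Control 21, 24 or 26 or CB1R KO 10 or 11. Ccr6, the receptor for Ccl20, at 2.45 to 11.3 TPM, and Ccr10, the receptor for Ccl27a, at 0.476 to 1.76 TPM, were not called in any comparison.

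Cxcr2, Cxcr5, Ccr7 and Cxcr4 fell in WT bleomycin lungs. Cxcr2, the main chemokine receptor of neutrophils, was at 23.3, 6.24, 6.50 and 22.5 TPM in Control, 5.05, 4.14, 2.73, 3.52 and 4.93 TPM in WT bleomycin and 7.37, 8.78, 5.04 and 4.08 TPM in CB1R KO bleomycin lungs. Control 3 and 26 were more than 3 times as high as the other 2 Control lungs, and the same mice carried the neutrophil markers S100a8, S100a9, Csf3r, Retnlg, Mmp8 and Mpo at 1660 and 1370 summed TPM against 386 and 301. These markers summed to 203 to 404 TPM in WT bleomycin and 239 to 525 TPM in CB1R KO bleomycin lungs, 3 of 5 tested were called lower in WT lungs, and their part in the level of Cxcr2 was not tested. The log2 fold change of Cxcr2 was -1.86 in WT lungs (SE 0.39, adjusted p = 0.00115 in edgeR) and -1.29 in CB1R KO lungs (SE 0.40, adjusted p = 0.022). The second of these calls was lost in 9 of 26 alternatives, among them leaving out Control 3, Control 26, CB1R KO 10 or CB1R KO 11, with adjusted p-values up to 0.107.

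Cxcr5, the receptor of B cells and follicular helper T cells for CXCL13, was at 19.2, 8.60, 10.7 and 9.08 TPM in Control, 11.0, 4.70, 4.50, 1.81 and 3.60 TPM in WT bleomycin and 8.31, 6.62, 9.11 and 6.22 TPM in CB1R KO bleomycin lungs. It fell in WT lungs by 1.33 on the log2 scale (SE 0.34, adjusted p = 0.00496 in edgeR) although its ligand Cxcl13 rose, and WT 4 overlapped Control. The 6 B cell markers were all lower in WT bleomycin than in Control lungs, with 161 to 404, 61.9 to 177 and 121 to 158 summed TPM in the 3 groups. Their highest values were in Control 3 and, within WT bleomycin, in WT 4, the same lungs as for Cxcr5, and their part was not tested. Ccr7, which takes T and dendritic cells to lymphatics, was at 24.6 to 34.3 TPM in Control, 15.3 to 28.5 TPM in WT bleomycin and 22.6 to 27.0 TPM in CB1R KO bleomycin lungs (log2 fold change -0.54, SE 0.13, adjusted p = 0.00411 in edgeR for WT bleomycin). Cxcr4, the CXCL12 receptor of most leukocytes and some endothelium, was at 90.7, 79.6, 79.9 and 86.8 TPM in Control, 63.2, 53.7, 46.2, 37.4 and 54.5 TPM in WT bleomycin and 73.9, 67.6, 57.9 and 52.2 TPM in CB1R KO bleomycin lungs. No lung after bleomycin reached Control, and the log2 fold change was -0.79 in WT (SE 0.13, adjusted p = 0.000158 in edgeR) and -0.50 in CB1R KO lungs (SE 0.14, adjusted p = 0.0109).

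The atypical receptors gave the largest changes of any receptor, in opposite directions. Ackr1, which carries chemokines across the endothelium of venules and binds both CC and CXC ligands, was at 1.16, 0.616, 0.470 and 0.276 TPM in Control, 13.8, 12.7, 7.94, 17.9 and 9.68 TPM in WT bleomycin and 5.26, 4.11, 17.5 and 10.7 TPM in CB1R KO bleomycin lungs. Its log2 fold change was 4.24 in WT lungs (SE 0.51, adjusted p = 1.31e-05 in edgeR) and 3.82 in CB1R KO lungs (SE 0.53, adjusted p = 8.93e-05), from 3.0 to 13 estimated counts per Control library. Ackr4, which takes up CCL19, CCL21 and CCL25, moved the other way, from 9.59, 11.5, 8.21 and 8.23 TPM to 1.74, 2.01, 0.695, 1.22 and 0.681 TPM in WT and 2.69, 2.66, 1.21 and 1.43 TPM in CB1R KO lungs. Neither bleomycin group came near Control (log2 fold change -3.01, SE 0.30, adjusted p = 2.48e-06, and -2.23, SE 0.31, adjusted p = 8.38e-05, edgeR), and it fell while Ccl21a rose.

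Ackr3, which takes up CXCL12, was at 20.0, 23.1, 27.6 and 26.0 TPM in Control, 84.3, 73.0, 92.7, 128 and 82.8 TPM in WT bleomycin and 44.8, 38.4, 99.0 and 71.9 TPM in CB1R KO bleomycin lungs. Of the receptors for CXCL12, Ackr3 was therefore higher than Control (1.88 in WT, SE 0.25, and 1.31 in CB1R KO lungs, SE 0.26) and Cxcr4 lower. Ackr2, which takes up inflammatory CC chemokines and is known from lymphatic endothelium, was at 37.7, 33.3, 47.0 and 42.4 TPM in Control, 33.4, 32.3, 45.8, 34.3 and 45.3 TPM in WT bleomycin and 35.9, 31.2, 24.6 and 23.8 TPM in CB1R KO bleomycin lungs. It was called only in CB1R KO bleomycin against Control (log2 fold change -0.36, SE 0.09, adjusted p = 0.00661 in edgeR), where CB1R KO 10 and 11 were below every other lung.

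**Figure D3:**
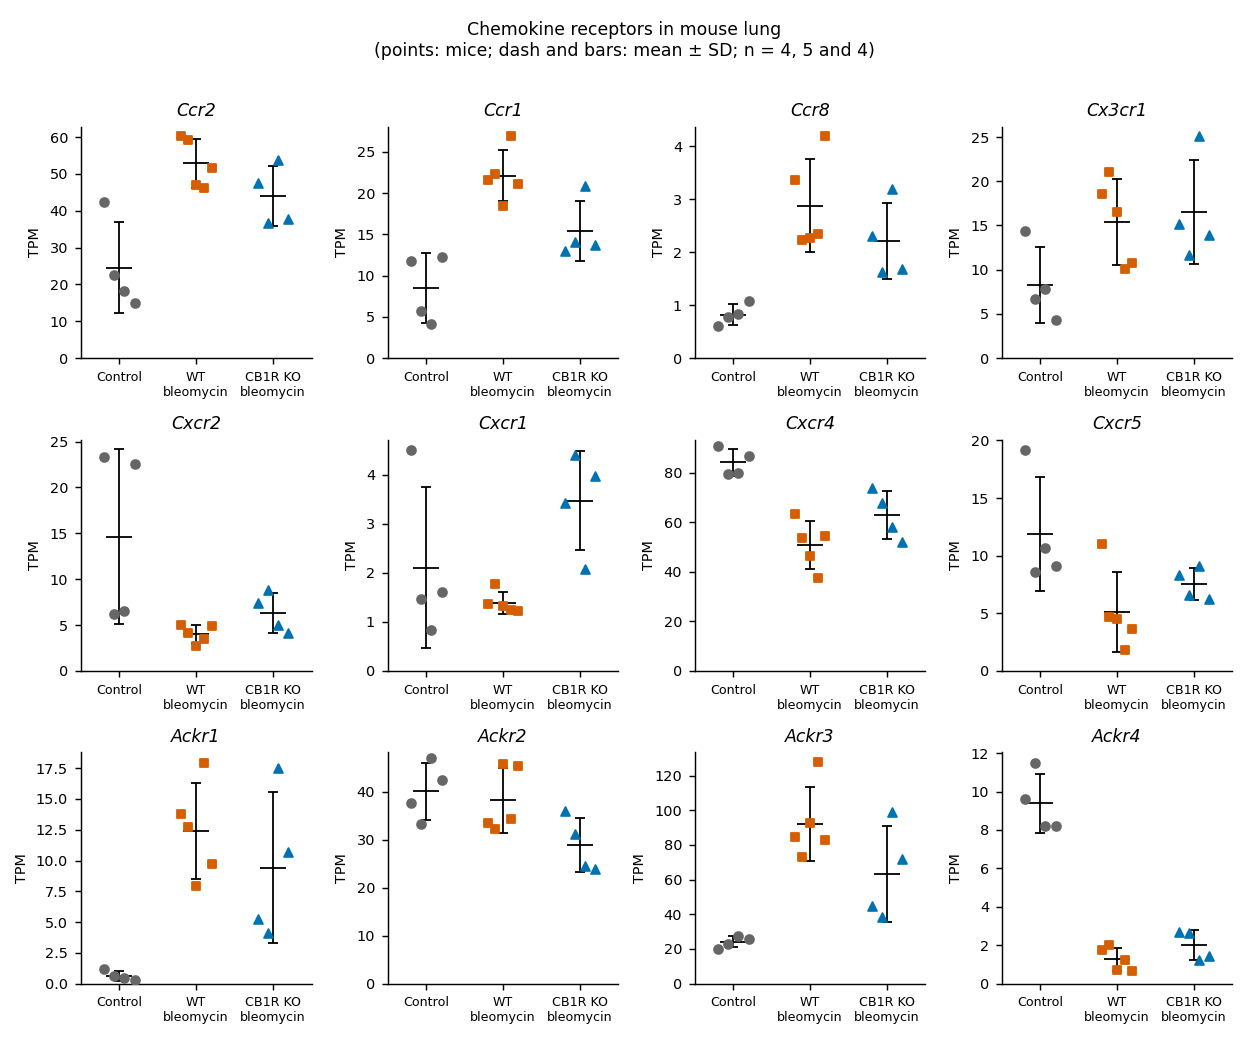
TPM of 12 receptors in each lung (points), with the mean and SD of each group (4 Control, 5 WT bleomycin, 4 CB1R KO bleomycin) and axes from 0. Ccr1, Ackr1 and Ackr3 are higher in every lung after bleomycin and Cxcr4 and Ackr4 lower, and Control 3 and 26 stand apart for Cxcr2.

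The direct comparison of CB1R KO with WT bleomycin lungs asks whether the deletion altered these levels. Of the 57 members tested, Ccl2 was called, lower by 1.29 on the log2 scale (SE 0.29, adjusted p = 0.0478 in edgeR), which is 1 of 35 ligands and 0 of 22 receptors where 0.979% of all genes were called. An unadjusted p under 0.05 was found for 10 ligands and 8 receptors, beside 17.0% of all genes. By TPM, every CB1R KO lung was below every WT bleomycin lung for Ccl2, Ccl7 and Ccl9, as for 2.15% of all genes tested, and above for Cxcl15 and Cxcr1, as for 3.11%. The median log2 fold change was -0.23 over the ligands and 0.09 over the receptors, where that of all genes was 0.00.

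The call of Ccl2 was at the edge of the threshold. Its log2 fold change stayed between -1.51 and -1.05, but the adjusted p was above 0.05 in 15 of 25 alternatives. It rose to 0.10 without CB1R KO 8, 0.122 without CB1R KO 9 and 0.108 without CB1R KO 11, and leaving out any WT bleomycin lung, Control 21 or Control 24 gave values from 0.0553 to 0.112. DESeq2, the tool named in the study's methods, gave 0.00114 on the same libraries and called 4 ligands (1 higher, 3 lower) and 1 receptor, with 646 of all genes called. Without CB1R KO 10 the edgeR test called 4 ligands and 3 receptors, and the adjusted p of Ccl2 was 0.0156. Calls over all genes rose as well, to 653 of 15417 tested, from 150 of 15315 with all libraries.

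The members with the next lowest p were not past the threshold, and their values follow. Ccl9 was lower by 0.65 on the log2 scale (SE 0.15, adjusted p = 0.0562 in edgeR) and Ccl7 by 1.16 (SE 0.29, adjusted p = 0.0728). Cxcl15 was higher by 0.49 (SE 0.14, adjusted p = 0.108). Among receptors, Cxcr1, a neutrophil receptor at 1.22 to 1.77 TPM in WT bleomycin and 2.08 to 4.40 TPM in CB1R KO bleomycin lungs, had a difference of 1.31 (SE 0.38, adjusted p = 0.106 in edgeR), Ackr2 of -0.29 (SE 0.09, adjusted p = 0.118) and Ccr9, a gut-homing receptor at 0.969 to 2.00 TPM in these lungs, of 0.42 (SE 0.15, adjusted p = 0.183). Each kept its sign under every alternative run. DESeq2 on all libraries called Ccl7, Ccl9, Cxcl15 and Cxcr1 beside Ccl2, and edgeR without CB1R KO 10 called Ccl7, Ccl8, Ccl9, Ackr3 and Cxcr1 beside Ccl2.

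Of the 32 members called higher in WT bleomycin against Control, 29 had a log2 fold change below 0 in CB1R KO against WT bleomycin, and of the 8 called lower, 7 had one above 0. The exceptions were Ccr4, Cx3cr1 and Xcr1 among the former and Cx3cl1 among the latter. Over all genes the same shares were 84.4% of 3834 and 84.9% of 3658, and both comparisons use the WT bleomycin lungs by which the genes were chosen, which favours opposite signs, so this is a description only. Among members called higher, Ccl12 differed by -0.42 (SE 0.25), Ccl8 by -1.04 (SE 0.33), Cxcl10 by -0.42 (SE 0.22), Cxcl13 by -0.78 (SE 0.41), Ccr2 by -0.32 (SE 0.22) and Cxcl14 by -0.48 (SE 0.18). Among members called lower, Ccl5 differed by 0.50 (SE 0.16), Cxcr2 by 0.57 (SE 0.39), Cxcr5 by 0.61 (SE 0.34), Cxcr4 by 0.29 (SE 0.13) and Ackr4 by 0.78 (SE 0.32). None of these differences passed the threshold after adjustment over all genes tested. Before adjustment, p in edgeR was under 0.05 for Ccl8 (0.00675), Ccl5 (0.00684), Cxcl14 (0.017), Ackr4 (0.0294) and Cxcr4 (0.0376). It was above 0.05 for the others listed here. At this number of animals, a missing call does not show that a difference is absent.

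**Figure D4:**
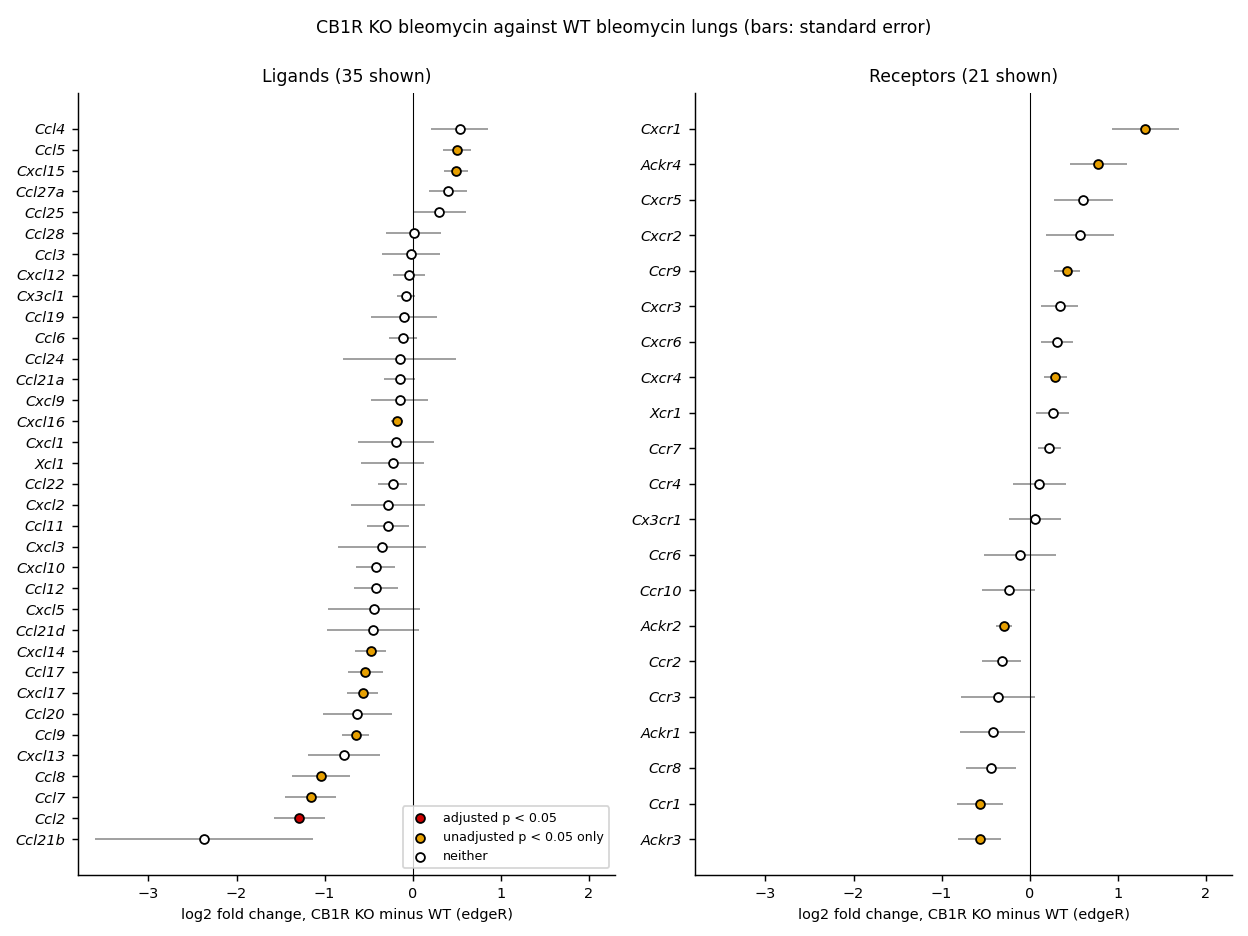
Log2 fold change of 35 ligands (left) and 21 receptors (right) in CB1R KO bleomycin against WT bleomycin lungs, with standard errors as bars and the fill marking which test was passed. Ccl2 (-1.29) is the one member filled for an adjusted p under 0.05, and 10 ligands have an unadjusted p under 0.05.

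The 4 CB1R KO lungs were unlike each other for these genes. Of the 23 ligands that rose in WT lungs with bleomycin, 16 were below every WT bleomycin lung in CB1R KO 8, 17 in CB1R KO 9, 7 in CB1R KO 10 and 15 in CB1R KO 11. Over all 3834 genes called higher in WT bleomycin lungs the shares were 46.9%, 52.3%, 18.0% and 32.7%, so CB1R KO 10 was closest to WT for genes at large as well. These genes were chosen with the WT bleomycin lungs to which CB1R KO lungs are compared here, which makes the shares a description only. CB1R KO 10 had the highest summed TPM of ligands (3280) and of monocyte and interstitial macrophage markers (4130) in its group.

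Genes that act downstream of chemokine receptors or modify chemokines had smaller log2 fold changes than the leading ligands. Of 36 such genes, 35 were tested, and 8 were higher and 14 lower in WT bleomycin than in Control lungs by edgeR, with log2 fold changes from -0.92 to 0.73, beside 25.0% and 23.9% of all genes. The higher ones included Arrb2 (0.48, SE 0.09), which uncouples receptors from G proteins, Pik3r5 (0.53, SE 0.09), a regulator of the PI3 kinase that Gi-coupled receptors activate, and Rgs10 (0.73, SE 0.10), which shortens G protein signals. The lower ones included Dpp4 (-0.92, SE 0.13), a protease that trims and inactivates several chemokines, Tpst1 (-0.64, SE 0.07) and Tpst2 (-0.29, SE 0.07), which add the tyrosine sulfates that receptors use to bind ligands, and Elmo1 (-0.54, SE 0.08), which couples receptors to Rac. In CB1R KO bleomycin against Control, 8 were higher and 6 lower, beside 19.0% and 16.3% of all genes. Between the bleomycin groups, edgeR called none of the 35, and 5 had an unadjusted p under 0.05, beside 17.0% of all genes. Outside the symbol rule, the platelet chemokine Ppbp fell from 27.5 to 56.4 TPM in Control to 5.18 to 12.3 TPM in WT bleomycin lungs (-2.17, SE 0.27) and Ccrl2, which binds chemerin, from 42.8 to 48.9 TPM to 17.1 to 26.9 TPM (-1.10, SE 0.13), while Pf4 was not called.

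**Figure D5:**
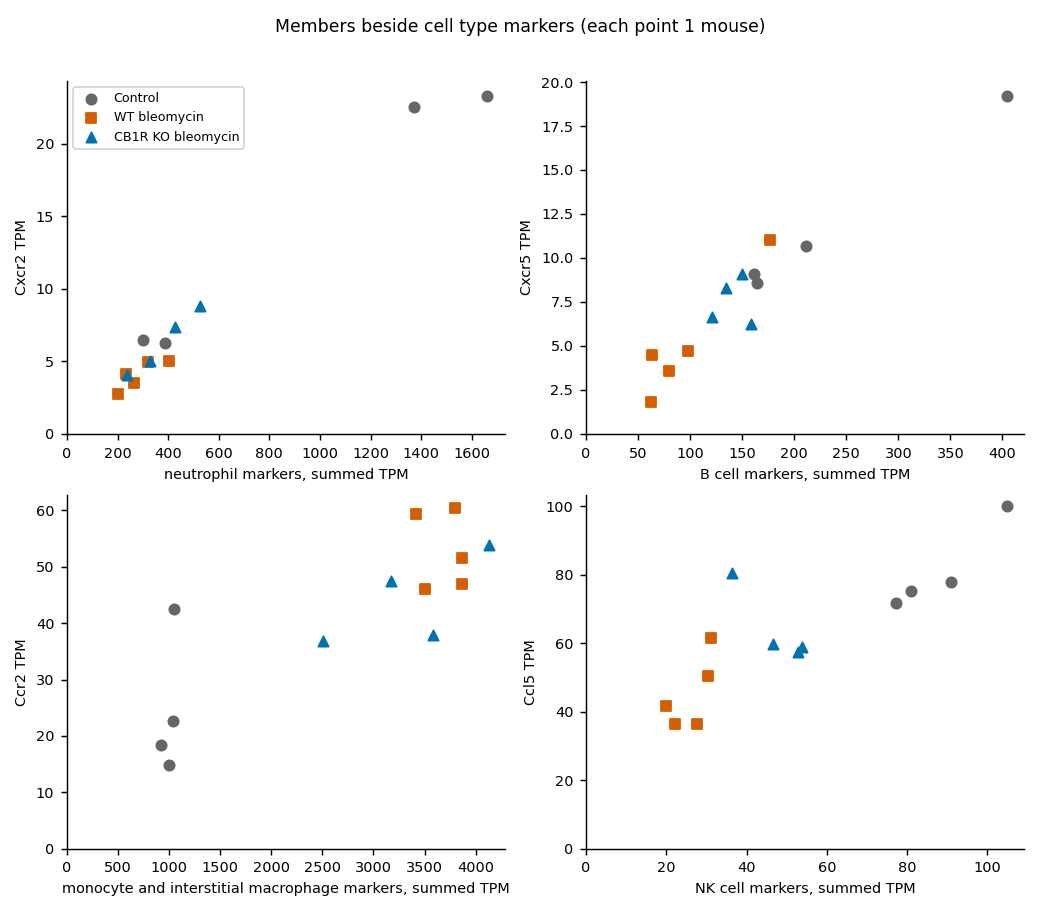
TPM of Cxcr2, Cxcr5, Ccr2 and Ccl5 in each lung against the summed TPM of markers of neutrophils, B cells, monocytes and interstitial macrophages, and NK cells, with 1 point per mouse. Control 3 and 26 are far to the right for neutrophils (1660 and 1370 TPM) and Control 3 for B cells (404 TPM), and the same lungs are highest for Cxcr2 and Control 3 for Cxcr5.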

How the data were processed

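RNA-seq of whole lung tissue from 13 mice in 3 groups was used. The authors quantified paired-end reads with Kallisto (version not given in the sources used here) on an Ensembl mouse index and summed protein-coding transcripts per gene symbol, with no pooling of mice. The authors deposited estimated counts, which differ in total between libraries, and TPM, which is scaled for transcript length and depth. A single column (1) of the TPM table has no sample here and was not used. Since transcripts are quantified by sharing reads, counts of near-identical genes are uncertain.

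Estimated counts were rounded and tested with edgeR 4.0.16 in R 4.3.3, using the default filter on low counts, TMM normalization and the quasi-likelihood test on all 13 libraries in 1 fit. P-values were adjusted by the Benjamini-Hochberg method over 15315 genes, with a threshold of 0.05. DESeq2 1.42.0, which the study's methods name, and limma 3.58.1 on log2 TPM were alternatives, with other filters, normalizations, a term for the style of the labels, thinning of CB1R KO 11 and each library left out. One receptor is counted but not reported here by itself. Levels were taken from TPM and marker lists were summed by TPM. On simulated counts for CB1R KO against WT bleomycin, 184 of 200 genes changed by 1 on the log2 scale were recovered (smaller changes were not simulated), with 9 calls among the unchanged of 15189 genes. The changed genes were drawn only from those above a low mean level, so this share is not a rate for the members. In the data, Ccl7 and Cxcr1 were not called at log2 fold changes of -1.16 and 1.31. The p-values set a difference between groups against the spread between mice. That spread was estimated over all 13 libraries, so p-values for CB1R KO against WT bleomycin also draw on the Control lungs.

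The members and lists were chosen with earlier results of these data known. The genes named were members called between the genotypes, those with the largest changes after bleomycin, those with the lowest p between the genotypes, the most abundant in Control and a list of members named whatever their values. The other members and the pathway examples were named after their values were seen.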

Additional observations from a re-analysis of the deposited data

Results flagged for a closer look

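In 11 of 132 sets of libraries (44 named members in 3 groups), 1 lung stood apart from the rest of its group by Dixon's test at the 95% level, which chance alone gives in about 1 of 20 sets. Control 21 stood apart for 3 members. Its TPM was 8.97 for Ccl22 (4.94 to 5.55 in the other Control lungs), 23.4 for Ccl24 (2.29 to 3.52) and 13.7 for Ccl27a (17.7 to 18.5). The same lung had the highest summed alveolar macrophage markers of Control, 2220 TPM, whose part was not tested. Ccl24 also stood apart in WT 5 (16.0 TPM against 2.26 to 5.27) and in CB1R KO 9 (15.1 TPM against 1.67 to 2.51).

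CB1R KO 10 stood apart for Ccl5 (80.6 TPM against 57.5 to 59.9 in the other CB1R KO lungs), Ccr1 (20.9 against 13 to 14.1) and Cxcl5 (1.51 against 0.915 to 1.01). Cxcl1 was highest in CB1R KO 8 (6.93 TPM against 1.71 to 2.35), Cxcl13 in WT 7 (74.8 TPM against 26.6 to 36.1) and Cxcr1 in WT 2 (1.77 TPM against 1.22 to 1.37).

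The level of Ccl2 after bleomycin differed between CB1R KO and WT lungs by the direct test, with a log2 fold change of -1.29 in CB1R KO against WT bleomycin lungs (adjusted p = 0.0478 in edgeR), a call that depends on the processing. Without an uninjured CB1R KO group, a difference in the response was not tested.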

How the results depend on the processing

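Through up to 26 alternatives, 46 of the 57 tested members were followed in WT bleomycin against Control and 37 in CB1R KO bleomycin against Control. Between the bleomycin groups 24 were followed. They were mainly members called or, between the bleomycin groups, with an unadjusted p under 0.05 in edgeR. None of those followed changed direction. Members with a fold near 0 were mostly not followed, so the constant direction holds for this selection only. Of 40 members called in WT bleomycin against Control, 32 kept the call in every alternative, as did 24 of 32 in CB1R KO bleomycin against Control. In the latter, leaving out single libraries ended the call of Ccr1 (Control 21 or 24, WT 4 or 2, CB1R KO 9, 10 or 11, adjusted p up to 0.127), Cx3cr1 (Control 21, 24 or 26, WT 5, CB1R KO 8, 10 or 11, up to 0.147), Cxcl1 (Control 3 or 21, CB1R KO 8, up to 0.0615) and Cxcl17 (Control 3, 21 or 24, CB1R KO 9 or 10, up to 0.0868) in edgeR.

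Leaving out 1 library at a time, WT bleomycin against Control gave 22 to 26 ligands, 12 to 14 receptors and 6656 to 7753 genes in all, and CB1R KO bleomycin against Control gave 17 to 19, 10 to 14 and 4272 to 5449. Between CB1R KO and WT bleomycin the same gave 0 to 4 ligands, 0 to 3 receptors and 1 to 653 genes, against 1, 0 and 150 in the fit of all libraries. The lowest count of genes was without CB1R KO 9 and the highest without CB1R KO 10, and the cause was not tested.

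For that comparison, the number of ligands called was 4 with DESeq2 on all libraries and 4 with DESeq2 on the 2 groups, 2 with edgeR on the 2 groups, and 0 with at least 10 counts in every library (which leaves out Ccl2), with limma at a pseudocount of 0.1, with the label style as a term, with lower-case labels only and with CB1R KO 11 thinned. Receptors were 1 and 4 with DESeq2 on all libraries and on the 2 groups. All genes were 646 and 649 with DESeq2, 88 with edgeR on the 2 groups, 93 with limma at a pseudocount of 0.1, 41 with the label style as a term and 6 with lower-case labels only. Control 26, WT 4-B2 and WT 7 have labels in another style, no CB1R KO library does, and whether this marks a batch is not stated. No paired analysis was possible because the groups share no replicate numbers. With 4 or 5 mice a group, members had a median SE of 0.29 in this comparison, and genes with few counts in Control have poorly fixed folds.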
